A study of Saccharomyces cerevisiae with 22 samples.

Results

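HSP82 (YPL240C, on chromosome XVI) and HSC82 (YMR186W, on chromosome XIII) are the paired genes for cytosolic Hsp90 in Saccharomyces cerevisiae. They were taken by gene symbol and make up 2 of the 6373 features on the array, with 1 probe each spotted 2 times, so 4 of 12776 yeast spots. Hsp90 is an ATP-driven homodimeric chaperone that acts late in the folding of client proteins, among them kinases and hormone receptors, and it works with a set of co-chaperones that load clients, pace the ATPase or carry out further steps. In budding yeast HSC82 is known for a high level in growing cells and HSP82 for a strong rise on heat, either gene alone keeps the cell alive, and the transcription factor Hsf1 binds upstream of both. The genes are near-identical copies in their coding sequence. How far each probe also takes up RNA of the other gene was not tested, so the values of the pair are uncertain in that respect.

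The arrays measured newly made RNA during removal of Hsf1 from the nucleus. Both strains were By4742 derivatives (matalpha, his3-1, leu2, lys2, ura3, with MET15) and both carried tor1-1, fpr1del and RPL13A-FKBP12-NAT. Hsf1-aa had in addition Hsf1-FRB-yEGFP, which rapamycin ties to the ribosomal protein fusion so that it leaves the nucleus, and WT-aa had no such tag. The slow course used 0.15 µM rapamycin and sampled each strain at 0, 15, 30, 60 and 90 min, which gave 20 arrays in 10 groups of 2, the 2 arrays of a group bearing the letters a and b. The standard depletion used 7.5 µM for 30 min with 1 array per strain. Cells received 5 mM 4-thiouracil (4tU), a uracil analog built into RNA as it is made, for the last 6 min before harvest, and the labelled RNA was isolated. Each slow array set it against a pool of 4tU RNA of untreated WT-aa. The design text gives the arrays of a group as independent cultures with swapped dyes. In the slow sample labels, however, letters a and b of a group share a number, which also stays the same over all times of a strain. The labels therefore do not show separate cultures, and whether a group holds 2 cultures or dye swaps of 1 was not tested. With dye swaps of 1 culture, the errors and p-values below would cover technical spread alone.

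Values below are log2 ratios of sample over reference, or log2 differences between groups, followed by the standard error (SE) of a limma fit over all slow arrays, with n = 2 arrays per group. A call means a Benjamini-Hochberg adjusted p under 0.05 over the 6353 features tested. Over all features the arrays within a group correlated with r between -0.208 and 0.736 (median 0.237). Array quality weights were lowest at 30 min (0.449 for the Hsf1-aa arrays, 0.442 for the WT-aa arrays, against 1.62 and 1.51 at 0 min). The HSF1 log2 ratio lay between -2.41 and -1.40 on the Hsf1-aa arrays and between -0.04 and 0.17 on the WT-aa arrays, without overlap at any time, 0 min included. It marks the tagged strain, and whether the tag changes what the HSF1 probe takes up was not tested. The location of the Hsf1 protein is not an array measurement. FPR1 was not analysed here.

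Both probes were read far above background on all 20 slow arrays. Sample intensity ran from 3397 to 28993 units for HSP82 and from 5275 to 45565 units for HSC82, over a local background of at most 54 and 56.5 units. The lowest signals were thus still many times the background. The 2 spots of a probe differed on 1 array by at most 0.16 (HSP82) and 0.20 (HSC82) on the log2 scale, with medians of 0.04 and 0.05.

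Before rapamycin, the newly made RNA of both Hsp90 genes was close to the reference pool in each strain. HSP82 stood at 0.01 and -0.11 on the Hsf1-aa arrays (a and b) and at 0.09 and -0.13 on the WT-aa arrays. HSC82 stood at -0.02 and 0.02 on the Hsf1-aa arrays and at -0.05 and -0.02 on the WT-aa arrays. The HSP82 groups overlapped, and the HSC82 groups lay side by side with a gap far below their fitted error. The strain difference was -0.03 ± 0.15 for HSP82 and 0.04 ± 0.09 for HSC82 (limma adjusted p = 0.998 for both). At this time 0.063% of the features were called lower in Hsf1-aa. The lower HSF1 reading of the tagged strain at 0 min stood beside newly made Hsp90 RNA for which no strain difference was detected.

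In Hsf1-aa both genes stood lower at each later time from 30 min on. At 15 min array a lay above both arrays of 0 min in both genes. HSP82 read 0.09 and -0.47 at 15 min, -0.69 and -0.91 at 30 min, -2.0 and -2.44 at 60 min, and -3.24 and -3.06 at 90 min. HSC82 read 0.02 and -0.02 at 15 min, -0.70 and -0.69 at 30 min, -1.86 and -2.02 at 60 min, and -3.06 and -2.73 at 90 min. In both genes the arrays of 30, 60 and 90 min did not overlap one another or those of 0 and 15 min. By 90 min HSP82 had reached -3.15 ± 0.13 (SD, n = 2), 11.3% of the reference, and HSC82 -2.89 ± 0.24 (SD, n = 2), 13.5% of the reference.

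**Figure D1:**
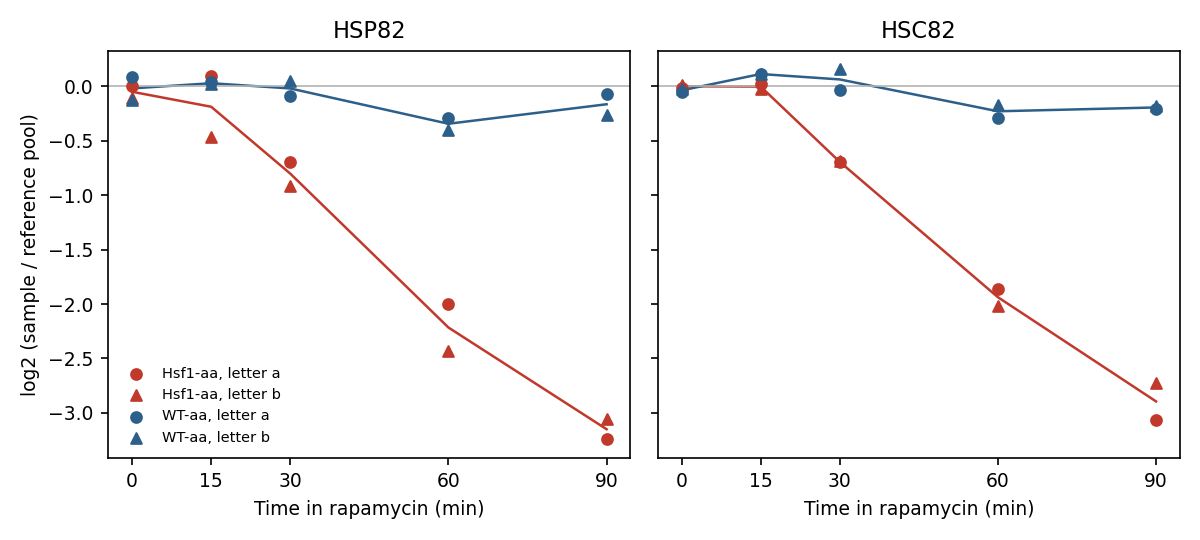
Log2 ratio of newly made RNA in the sample over the reference pool (vertical axis) against minutes in 0.15 µM rapamycin (horizontal axis) for HSP82 (left) and HSC82 (right). Each point is 1 array, circles for letter a and triangles for letter b, red for Hsf1-aa and blue for WT-aa, and lines join the means of the 2 arrays. The Hsf1-aa points of both genes go down from 30 min on and end between -3.24 and -2.73, while every WT-aa point lies between -0.40 and 0.16.

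The fall within Hsf1-aa was called from 30 min on for both genes. Against 0 min, HSP82 had changed by -0.75 ± 0.15 at 30 min (adjusted p = 0.0321), by -2.16 at 60 min (adjusted p = 1.38e-06) and by -3.10 at 90 min, an 8.57-fold fall (limma adjusted p = 3.32e-08). HSC82 had changed by -0.69 ± 0.09 at 30 min (adjusted p = 0.00196), by -1.94 at 60 min (adjusted p = 4.42e-08) and by -2.89 at 90 min, a 7.43-fold fall (adjusted p = 5.22e-10). At 15 min neither gene passed, with -0.14 for HSP82 (adjusted p = 0.723) and -0.00 for HSC82 (adjusted p = 0.993). The features called lower made up 0.535% of all at 15 min, 0.535% at 30 min, 1.57% at 60 min and 1.94% at 90 min, of which the 15 min share varied most (34 features, 1 to 56 with 1 array left out, the lowest without Hsf1-aa array b of 0 min or of 15 min). The HSP82 call at 30 min lost its side of the threshold when 1 array was left out in 12 of 20 cases (either Hsf1-aa array of 0 or 30 min, or either WT-aa array of 0, 15, 60 or 90 min; highest adjusted p 0.320), and without the dye term (adjusted p = 0.145), with array weights (0.0821) and from the second spot alone (0.0964). With arrays centred on external control RNA instead of by loess, neither gene kept the 30 min call (adjusted p = 0.188 for HSP82 and 0.227 for HSC82).

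In WT-aa, where rapamycin has no tagged Hsf1 to bind, no time differed from 0 min by the test in either gene. HSP82 read 0.04 and 0.02 at 15 min, -0.09 and 0.05 at 30 min, -0.29 and -0.40 at 60 min, and -0.07 and -0.26 at 90 min. HSC82 read 0.11 and 0.11 at 15 min, -0.03 and 0.16 at 30 min, -0.29 and -0.17 at 60 min, and -0.21 and -0.18 at 90 min. The arrays of 60 min lay below those of 0 min in both genes, by -0.32 ± 0.15 for HSP82 and -0.19 ± 0.09 for HSC82 (adjusted p = 0.526 for both). At 90 min the differences were -0.15 and -0.16 (adjusted p = 0.900 and 0.795). Of the 17 Hsf1 chaperone targets tested, described further down, 17 lay below 0 at 60 min and 16 at 90 min in WT-aa. Their medians were -0.27 and -0.14 against 0.00 over all features, and 0 were called lower. Taken over the 4 times after 0 min at once, limma's F-test gave adjusted p = 0.286 for HSP82 and 0.129 for HSC82 in WT-aa, against 6.98e-08 and 1.11e-09 in Hsf1-aa. In WT-aa 0.0472%, 0.0157%, 0.11% and 0.488% of the features were called lower at 15, 30, 60 and 90 min. The count behind the 30 min share was 1 feature, and 732 without WT-aa array b of 30 min, and that behind the 15 min share was 3, and 441 with array weights.

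Ordered by level over the 10 groups, both genes had the same 3 lowest groups, Hsf1-aa at 90, 60 and 30 min, each separated from the next by arrays that did not overlap. Above them the groups of HSP82 formed 1 run of neighbours with overlapping arrays, from WT-aa at 60 min (-0.34 ± 0.08, SD) to WT-aa at 15 min (0.03 ± 0.01, SD). For HSC82 the same run was broken once, between WT-aa at 90 min (-0.20 ± 0.02, SD) and WT-aa at 0 min (-0.04 ± 0.02, SD). The Hsf1-aa groups of 0 and 15 min stood inside these runs, among the WT-aa groups.

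Set against WT-aa at the same time, the Hsp90 genes were lower in Hsf1-aa from 30 min on, and the difference grew at each later time. At 30 min it was -0.78 ± 0.15 for HSP82 (adjusted p = 0.0210) and -0.76 ± 0.09 for HSC82 (adjusted p = 8.08e-04), when 0.724% of the features were called lower (46, and 399 without Hsf1-aa array b of 30 min). At 60 min it was -1.87 ± 0.15 for HSP82 (adjusted p = 6.12e-06) and -1.71 ± 0.09 for HSC82 (adjusted p = 2.06e-07), when 1.02% were called lower. These are a 3.66-fold and a 3.26-fold lower level. At 90 min the difference was -2.98 ± 0.15 for HSP82 (7.91-fold lower, adjusted p = 5.09e-08) and -2.70 ± 0.09 for HSC82 (6.49-fold lower, adjusted p = 1.24e-09), again with 1.02% of features called lower. At that time newly made RNA of HSP82 stood at 12.6% of the WT-aa level and that of HSC82 at 15.4%. The differences ranked 1 and 3 from the lowest among the 6353 features. From 30 min on the arrays of the strains did not overlap in either gene. The HSP82 call at 30 min did not hold without Hsf1-aa array a of 30 min (adjusted p = 0.139) or WT-aa array b of 30 min (0.0564), with array weights (0.327), without the dye term (0.0976) or from the second spot alone (0.0601), and with centring on external control RNA neither gene passed at 30 min (adjusted p = 0.318 and 0.384).

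**Figure D2:**
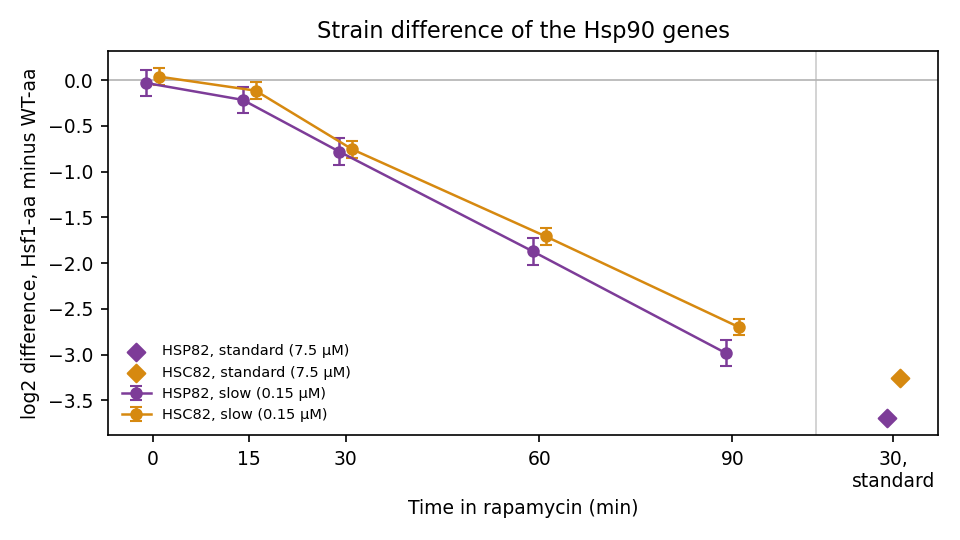
Log2 difference of Hsf1-aa minus WT-aa (vertical axis) against minutes in rapamycin (horizontal axis) for HSP82 (purple) and HSC82 (orange). Circles are the slow course with the SE of the limma fit (2 arrays per strain and time), points of the genes set apart sideways, and diamonds right of the vertical line are the standard depletion with 1 array per strain and no error. Both genes go from near 0 to -2.98 and -2.70 at 90 min, and to -3.69 and -3.26 in the standard depletion.

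The 15 min difference of HSP82 rested on 1 array. It was -0.22 ± 0.15 (adjusted p = 0.599), and without Hsf1-aa array b of 15 min it was 0.01. For HSC82 it was -0.12 ± 0.09 (adjusted p = 0.650), although both Hsf1-aa arrays lay below both WT-aa arrays. At 15 min 0.189% of the features were called lower. The log2 ratios of the same arrays in the authors' deposited table were -0.05 and -0.05 for HSP82, and -0.36 and -0.07 for HSC82, in Hsf1-aa at 15 min (a and b). Which gene had the low array at 15 min thus differed between the scanner intensities and the authors' values.

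The change of the strain difference from 0 min takes out what the strains differed by before rapamycin. By 15 min it was -0.19 ± 0.21 for HSP82 and -0.15 ± 0.13 for HSC82 (adjusted p = 0.798 and 0.764), and 0% of the features passed in limma, 0 of 6353 in either direction, where 232 had an unadjusted p under 0.05. By 30 min it was -0.75 ± 0.21 for HSP82 (adjusted p = 0.387) and -0.79 ± 0.13 for HSC82 (adjusted p = 0.0479), with 0.0944% of features called lower (6, and 206 without Hsf1-aa array b of 30 min). The HSC82 call by 30 min lay at the threshold and was lost when 1 array was left out in 15 of 20 cases, with adjusted p up to 0.237. Those were either Hsf1-aa array of 0 or 15 min, Hsf1-aa array a of 30 min, and each of the 10 WT-aa arrays. By 60 min the change was -1.84 for HSP82 (adjusted p = 4.46e-04) and -1.75 for HSC82 (adjusted p = 1.01e-05), with 0.535% of features called lower. By 90 min it was -2.95 ± 0.21 (adjusted p = 4.69e-06) and -2.74 ± 0.13 (adjusted p = 7.44e-08), with 0.614% called lower. Of the change reached at 90 min, HSP82 had covered 6.27% by 15 min, 25.4% by 30 min and 62.3% by 60 min. HSC82 had covered 5.60%, 29.0% and 63.8% at the same times. Within Hsf1-aa alone the shares were 4.44%, 24.3% and 69.9% for HSP82, and 0.0963%, 24.0% and 66.9% for HSC82. No test was made of these shares.

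Step by step within Hsf1-aa, the largest drop of both genes on the log2 scale fell between 30 and 60 min, which is also a longer interval than those before. From 15 to 30 min HSP82 changed by -0.61 ± 0.15 (adjusted p = 0.100) and HSC82 fell by 0.69 ± 0.09 (adjusted p = 0.00332), with 0.535% of features called lower. Without Hsf1-aa array a of 15 min the HSC82 step did not pass (adjusted p = 0.0543). From 30 to 60 min HSP82 fell by 1.41 ± 0.15 (adjusted p = 2.68e-04), the lowest value among the 6353 features, and HSC82 fell by 1.24 ± 0.09 (adjusted p = 2.31e-05), with 0.346% called lower. From 60 to 90 min HSC82 fell by 0.96 ± 0.09 (adjusted p = 9.56e-04) and HSP82 fell by 0.93 ± 0.15 (adjusted p = 0.0391), the lowest 2 values of all features, with 0.0944% called lower. Both genes thus still fell in the last 30 min. Of the 17 Hsf1 chaperone targets tested, described further down, 3 were called lower over this step and 16 lay below 0, with a median of -0.34. The HSP82 call of this last step was lost in 15 of 20 cases of 1 array left out (either Hsf1-aa array of 0, 30 or 60 min, Hsf1-aa array a of 90 min, or either WT-aa array of 0, 15, 60 or 90 min), with adjusted p up to 0.825, and with centring on external control RNA neither gene's last step passed (adjusted p = 1.00 for both), nor did the HSC82 steps from 15 to 30 min (adjusted p = 1.00) and from 30 to 60 min (adjusted p = 0.0870).

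HSP82 went slightly lower than HSC82 in Hsf1-aa, and the gap between the genes was not shown to differ between the strains. Each array gives 1 value of HSP82 minus HSC82, a difference of log2 ratios. In Hsf1-aa (a and b) it was 0.02 and -0.12 at 0 min, 0.08 and -0.45 at 15 min, 0.01 and -0.22 at 30 min, -0.14 and -0.42 at 60 min, and -0.18 and -0.33 at 90 min. In WT-aa it was 0.14 and -0.11 at 0 min, -0.07 and -0.09 at 15 min, -0.06 and -0.11 at 30 min, 0.00 and -0.23 at 60 min, and 0.14 and -0.08 at 90 min. Values below 0 came from 6 arrays of each strain among the 8 of 15 to 90 min, and the strains overlapped at 15, 30 and 60 min. At 90 min both Hsf1-aa values lay below both WT-aa values. Since uptake of the other gene's RNA by each probe was not tested, the size of the gap is uncertain.

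Averaged over 15 to 90 min, the gap in Hsf1-aa minus that in WT-aa was -0.14 (two-sided exact permutation test, strains permuted within each time, p = 0.114 over 1296 permutations, smallest possible p 0.00154). With strains permuted within time and letter, which was chosen after the data were seen, the exact permutation p was 0.0703 over 256 permutations, and 6 of 8 pairs of arrays lay below 0. The strain difference of the gap was -0.07 at 0 min, -0.10 at 15 min, -0.03 at 30 min, -0.16 at 60 min and -0.28 at 90 min. Leaving out Hsf1-aa array a of 15 min brought it to -0.21 (exact permutation p = 0.0185) and leaving out that of 30 min to -0.17 (exact permutation p = 0.0478), while leaving out Hsf1-aa array b of 15 min brought it to -0.08 (exact permutation p = 0.316). In the authors' deposited table the log2 gap was -0.02 (exact permutation p = 0.752). The gap was lower on letter b than on letter a in each of the 10 groups, and the letter is also the dye: the dye term of the fit (Cy5 minus Cy3) was -0.16 for HSP82 and 0.05 for HSC82, against a median size of 0.10 over all features. With all arrays in, dyes were balanced between the strains at every time. With 1 array left out they were not balanced at its time. The permutation has no dye term, so those values could not be told apart from a dye effect.

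**Figure D3:**
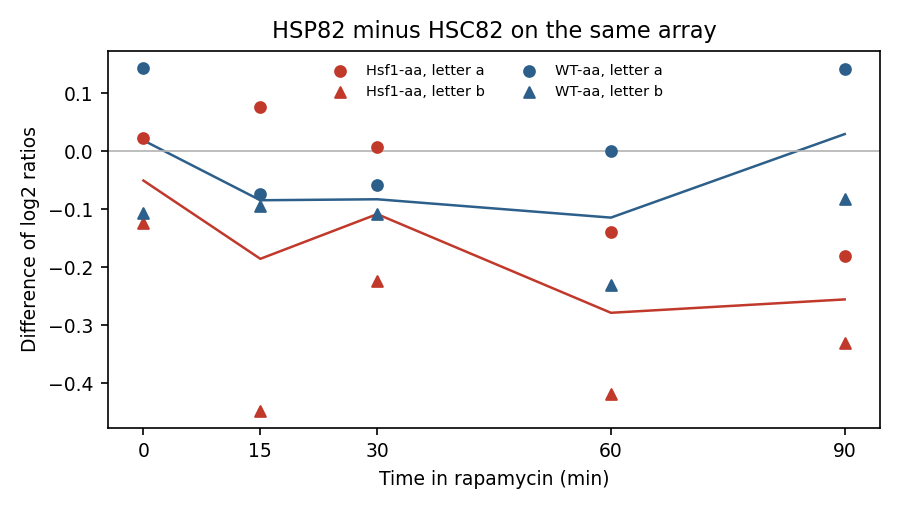
Difference of the log2 ratios of HSP82 and HSC82 on the same array (vertical axis) against minutes in 0.15 µM rapamycin (horizontal axis), for Hsf1-aa (red) and WT-aa (blue). Circles are letter a (sample in Cy3), triangles letter b (sample in Cy5), and lines join the means of 2 arrays. Triangles lie below the circles of the same group throughout, and the strains are farthest apart at 90 min.

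The standard depletion, with 1 array per strain and so no test, gave the same direction for both genes. The Hsf1-aa array read -3.67 for HSP82 and -2.86 for HSC82, the WT-aa array 0.02 and 0.40, against a reference of RNA without 4tU. The strain difference was -3.69 for HSP82 (12.9-fold, newly made RNA at 7.74% of the WT-aa level) and -3.26 for HSC82 (9.58-fold, at 10.4%). These ranked 1 and 4 from the lowest among 6154 features, of which 0.39% lay below -1. After 30 min the slow course had stood at -0.78 and -0.76, and after 90 min at -2.98 and -2.70. Rapamycin dose, reference and array set all differ between the courses, so the values are only set side by side. The standard arrays had a dim reference channel (median over spots 172.6 units for Hsf1-aa and 297 units for WT-aa), and with centring on the median in place of loess the differences came to -2.74 and -2.44.

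Among 18 chaperone genes listed as Hsf1 targets, both Hsp90 genes included and 17 of them tested (SSA2 was not analysed here), the pair moved from the middle to the front of the list. The list counted 0 members called lower at 0 min, 3 at 15 min, 11 at 30 min, 16 at 60 min and all 17 tested at 90 min, when 0.063%, 0.189%, 0.724%, 1.02% and 1.02% of all features were called lower. The 90 min calls of HCH1 and MBF1 were each lost under 1 of 35 alternatives (limma adjusted p = 0.199 and 0.470). Not every member of the list was tried under the alternatives. The list had medians of -0.05, -0.28, -0.76, -1.69 and -2.13 and a median over all features between -0.01 and 0.00. From the lowest, HSP82 and HSC82 held places 8 and 9 of the 17 at 30 min, 4 and 8 at 60 min, and 1 and 3 at 90 min. At 15 min FES1, an Hsp70 nucleotide exchange factor, was lower at -0.44 ± 0.07 (adjusted p = 0.0150). The J-domain protein gene APJ1 was lower at -0.62 ± 0.09 (adjusted p = 0.00757). Their strain differences at 0 min were -0.02 and -0.20. For the change of the strain difference by 15 min, 0 of the 17 were called lower, and 0% of all features. At 90 min FES1 and APJ1 stood at -1.49 and -1.68, above both Hsp90 genes. On the standard arrays 15 of the 17 lay below -1, against 0.39% of 6154 features. This count was not repeated with median centring in place of loess. The list was chosen with earlier results of these data known and is no independent support for its direction.

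Most genes for Hsp90 co-chaperones did not move with the Hsp90 genes. Of 12 listed, 0, 1, 2, 4 and 4 were called lower in Hsf1-aa at 0, 15, 30, 60 and 90 min, against 0.063%, 0.189%, 0.724%, 1.02% and 1.02% of all features. At each time 0 were called higher, against 0.063%, 0.0315%, 0.063%, 0.189% and 0.205% of all features. The list median at 90 min was -0.07 against -0.00 over all features. The 4 lower at 90 min were STI1, which hands clients from Hsp70 to Hsp90, at -2.28 ± 0.15 (adjusted p = 7.37e-07), AHA1, the main activator of the Hsp90 ATPase, at -1.91 ± 0.17 (adjusted p = 2.04e-05), CPR6, a cyclophilin that binds Hsp90, at -1.61 ± 0.11 (adjusted p = 1.73e-06), and HCH1, a relative of AHA1, at -1.08 ± 0.08 (adjusted p = 3.57e-06). Each of them was less far down than either Hsp90 gene at that time, and the differences between genes were not tested. CPR6 was the only one called at 15 min (-0.69 ± 0.11, adjusted p = 0.0345) and stood at -1.0 at 30 min, below both Hsp90 genes, and at -1.74 at 60 min. Its strain difference at 0 min was -0.20, and 0 of the 12 changes of the strain difference by 15 min were called. With centring on external control RNA HCH1 did not pass at 90 min (adjusted p = 0.199). HCH1 passed from 30 min on (-0.63, adjusted p = 0.00146), and STI1 and AHA1 from 60 min on (-1.34 and -1.54).

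The other 8 co-chaperone genes lay between -0.10 and 0.04 at 90 min (adjusted p = 1.00 for each). CDC37, the co-chaperone for kinase clients, stood at 0.00 ± 0.06, SBA1, the p23 homolog that holds Hsp90 closed, at -0.10 ± 0.22, and CPR7, the close relative of CPR6, at -0.02 ± 0.08. PPT1, the phosphatase that acts on Hsp90, stood at -0.10 ± 0.13, SGT1, which links Hsp90 to kinetochore assembly, at 0.03 ± 0.07, and CNS1 at 0.04 ± 0.13. PIH1 and TAH1, subunits of the R2TP complex that works with Hsp90, stood at -0.04 ± 0.12 and 0.02 ± 0.09. CPR6 and CPR7 thus had unlike values despite their kinship. On the standard arrays STI1 stood at -2.19, AHA1 at -1.46, CPR6 at -1.39 and HCH1 at -0.94. There 3 of the 12 lay below -1, against 0.39% of 6154 features. This count, too, was not repeated with median centring.

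**Figure D4:**
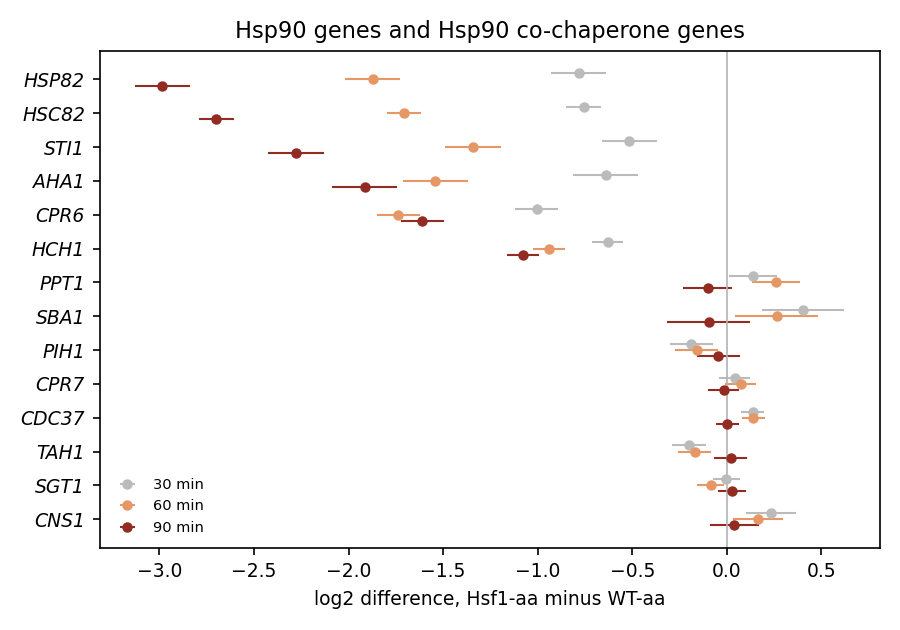
Log2 difference of Hsf1-aa minus WT-aa (horizontal axis) for the 2 Hsp90 genes and 12 co-chaperone genes (vertical axis, by their value at 90 min) at 30, 60 and 90 min of the slow course. Points are estimates and bars the SE of the limma fit with 2 arrays per strain and time. STI1, AHA1, CPR6 and HCH1 lie apart from 0 at 60 and 90 min, and the other 8 stay within -0.20 and 0.40.

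By Pearson r over the 10 slow group means, each Hsp90 gene was the named feature most like the other. Among 5292 named features compared, HSC82 had the highest Pearson r with HSP82 and HSP82 with HSC82 (r = 0.998 over 10 group means, root mean square distance 0.15). Next for both came SIS1, a J-domain partner of Hsp70 (r = 0.996 with HSP82 and 0.995 with HSC82), MBF1, a transcriptional coactivator gene (0.996 and 0.995), STI1 (0.996 and 0.991) and SSA1, a cytosolic Hsp70 gene (0.987 and 0.990). Their strain differences at 90 min were -2.55 for SIS1, -1.72 for MBF1, -2.28 for STI1 and -2.12 for SSA1. The root mean square distance to HSC82 was 0.142 for SIS1, less than the 0.148 for HSP82, and 0.41 for MBF1. The group means come from the same 20 arrays, and the Hsf1-aa means of 60 and 90 min spread them most, so r is a description of these arrays. How far each Hsp90 probe takes up RNA of the other gene was not tested, so the likeness of the pair is uncertain in that respect.

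The genes next to the Hsp90 genes on the chromosomes, as the RefSeq annotation R64 orders them, were not called lower in Hsf1-aa at any time where tested. HSP82 lies between CIN2, a tubulin folding factor gene, and YAR1, a gene of ribosome assembly, and HSC82 between RTP1, not analysed here, and YMR187C, a gene of unknown function. At 90 min the strain difference was 0.14 ± 0.09 for CIN2 and -0.31 ± 0.20 for YAR1 (adjusted p = 1.00 for both). The YAR1 value at 0 min was alike, at -0.34 ± 0.20. YMR187C was higher in Hsf1-aa at 60 min (0.30 ± 0.06, adjusted p = 0.0238) and 90 min (0.35 ± 0.06, adjusted p = 0.00584), while 0.189% and 0.205% of the features were called higher. The 60 min call was lost under 8 of 35 alternatives, among them each of the 4 arrays of 60 min left out (adjusted p up to 0.357) and the fit without the dye term (0.435). The 90 min call was lost under 4, namely without the dye term (0.305), with centring on external control RNA (1.00), and without Hsf1-aa array b or WT-aa array a of 90 min (up to 0.137).

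The YMR187C arrays of Hsf1-aa read -0.09 and 0.00 at 0 min and 0.28 and 0.47 at 90 min, and those of WT-aa -0.06 and 0.08 at 0 min and -0.08 and 0.13 at 90 min. The strains overlapped at 0 min and not at 90 min. Within Hsf1-aa YMR187C rose by 0.42 ± 0.06 from 0 to 90 min (adjusted p = 9.88e-04), when 0.756% of the features rose, and in WT-aa the difference was 0.01 (adjusted p = 0.981). The change of the strain difference by 90 min was 0.40 ± 0.08 (adjusted p = 0.0493, with 0.142% of the features called higher), at the threshold, and its call held under 4 of 35 alternatives. On the standard arrays the strain difference of YMR187C was 0.13, that of CIN2 0.21 and that of YAR1 -0.17.

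**Figure D5:**
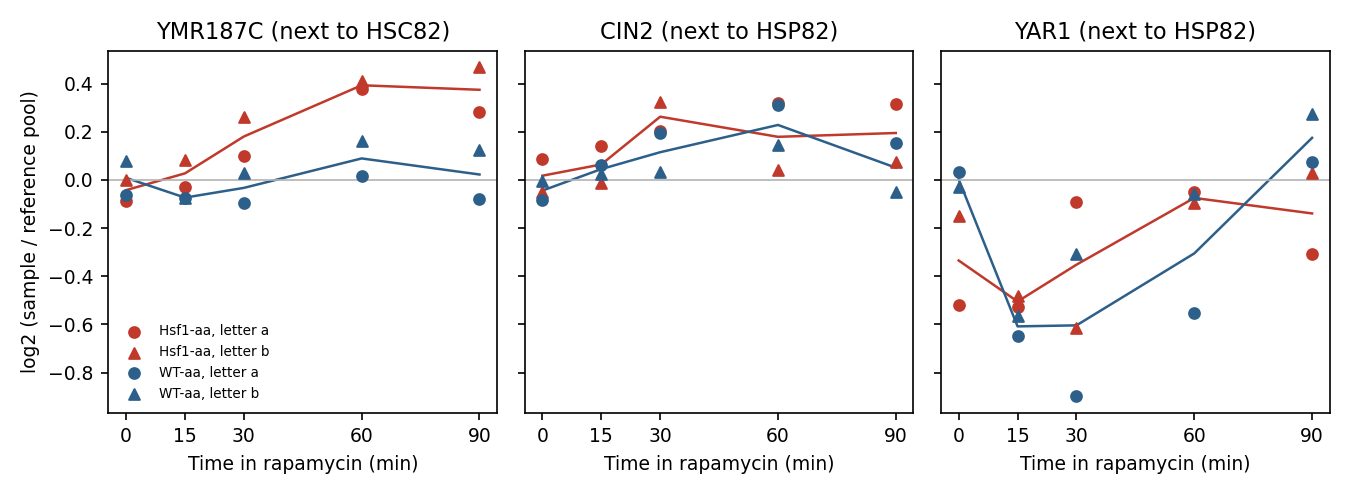
Log2 ratio of sample over reference pool (vertical axis) against minutes in 0.15 µM rapamycin (horizontal axis) for the chromosomal neighbours YMR187C, CIN2 and YAR1. Each point is 1 array (circle letter a, triangle letter b, red Hsf1-aa, blue WT-aa) and lines join the means of 2 arrays. The YMR187C points of Hsf1-aa reach 0.28 and 0.47 at 90 min above both WT-aa points, while CIN2 and YAR1 show no called strain difference.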

How the data were processed

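Newly made, 4tU-labelled RNA was hybridised to 22 spotted arrays, each with a dyed sample and a dyed reference. The deposited scanner files give, per the file headers, each spot's linear intensity in both dyes and its local background. A deposited table gives the authors' log2 ratio of Cy5 to Cy3, with no statement of how it was normalised. Its columns had medians of -0.00704 to 0.0224 and correlated at r = 0.631 to 0.971 with the ratios computed here; it served as an alternative. The genome build is not given in the labels or headers, so no positions are printed, and probe, promoter and protein sequences were not used here.

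Intensities were corrected by normexp (offset 50). Loess normalization of every array followed, leaving the 2776 control spots at weight 0, and values were then turned to sample over reference and averaged over spots. Loess removes any shift common to all genes of an array. A feature was tested if detected (2 background SD above background) in the sample on at least 2 slow arrays. The 20 slow arrays were fitted with lmFit and eBayes of limma 3.58.1, under R 4.3.3, as 10 groups plus the dye (9 residual degrees of freedom, 12.55 with the prior), two-sided, with Benjamini-Hochberg adjustment over 6353 features. The paralog gap was tested by exact permutation. The code was tested on simulated data. The number of arrays limits the precision, and if letters were dye swaps of 1 culture, p-values would cover technical spread alone.

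Named were the members, HSF1, FPR1, the 5 named features most alike each member by Pearson r over group means, the chromosomal neighbours, and co-chaperones that passed at 90 min or were at the extremes; FES1 and APJ1 and the other co-chaperones were added after their values were seen. The members and lists were chosen with earlier results of these data known. Symbols out of date (58) were updated through the RefSeq table R64. Letters a and b occur in all groups. Deviations from the group means, with the dye left in, correlated between arrays of the same letter at r = -0.399 to 0.822 (median 0.538), not above 0.1 in every pair. The letter is also the dye, so this could not tell paired cultures from a dye effect. The letters were not taken to pair cultures. Alternatives covered background, normalization, filter, spots, dye term, weights, prior, the authors' table and each array left out.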

Additional observations from a re-analysis of the deposited data

Results flagged for a closer look

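The change of the strain difference (Hsf1-aa minus WT-aa) from 0 min is a test of the difference between the strains' time courses, and 6 such changes passed in limma. For HSC82 it was -0.79 by 30 min (adjusted p = 0.0479), -1.75 by 60 min (adjusted p = 1.01e-05) and -2.74 by 90 min (adjusted p = 7.44e-08). For HSP82 it was -1.84 by 60 min (adjusted p = 4.46e-04) and -2.95 by 90 min (adjusted p = 4.69e-06). HSC82 passed by 30 min and HSP82 did not, and whether the genes differ at that time was not tested. For YMR187C, the gene next to HSC82, the change was 0.40 by 90 min (adjusted p = 0.0493), in the opposite direction. The HSC82 call by 30 min held under 13 of 34 alternatives and the YMR187C call under 4 of 35. The groups of 2 arrays are too small for a test of outlying arrays.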

How the results depend on the processing

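At 60 and 90 min the strain differences, their changes from 0 min and the falls of both Hsp90 genes within Hsf1-aa kept their direction and their call under all 35 alternatives, except the HSC82 change by 60 min with centring on external control RNA (-1.63, adjusted p = 0.0547). The strain difference at 90 min ranged from -3.17 to -2.79 for HSP82 and from -2.85 to -2.54 for HSC82 with 1 array left out.

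Centring on external control RNA moved the median of all features by up to -0.302 (WT-aa, 15 against 0 min) and 0.227 (change by 90 min) and widened the errors. It gave strain differences of -0.16 for HSC82 at 0 min and, no longer called, -0.91 (HSP82) and -0.87 (HSC82) at 30 min. The changes by 15 min became 0.060 and 0.086, and the HSC82 change by 30 min -0.70. Within Hsf1-aa, 30 against 0 min gave -1.03 and -0.98, the HSC82 steps -0.81 (15 to 30 min) and -1.12 (30 to 60 min), and the last steps -0.82 (HSP82) and -0.84 (HSC82), none called. In WT-aa it gave -0.35 and -0.25 at 15 min and -0.27 for HSC82 at 30 min. Median centring gave -0.013 for HSP82 in WT-aa at 15 min, and -2.74 and -2.44 for the standard strain differences. The cause was not tested.

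The authors' table, with log2 ratios, gave 0.0085 for the HSP82 strain difference at 0 min, 0.10 for HSP82 in WT-aa at 30 min, and called the HSP82 change by 30 min (-0.89) and step from 15 to 30 min (-0.78). HSP82 in WT-aa at 30 min was also 0.0013 with offset 10, 0.023 from the second spot and 0.016 from pixel medians, which also gave 0.020 for HSC82 in Hsf1-aa at 15 min and called the HSP82 step from 15 to 30 min (-0.68). The second spot gave 0.00022 for HSC82 in Hsf1-aa at 15 min and lost the HSP82 values at 30 min (strain difference -0.78, against 0 min -0.73), the HSP82 last step (-0.94) and the HSC82 change by 30 min (-0.81). Calls were lost at the same estimates for the HSC82 change by 30 min (-0.79) without the dye term as replicate block, with a replicate block per strain, with array weights and with a trended prior. They were lost for the HSP82 strain difference at 30 min (-0.78) and HSP82 30 against 0 min (-0.75) without the replicate block and with weights, and for the HSP82 last step (-0.93) without the replicate block and with a trended prior.

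With 1 array left out, HSP82 ranged from -0.065 to 0.0029 (strain difference at 0 min), -0.44 to 0.010 (15 min) and -0.95 to -0.62 (30 min), its change by 15 min from -0.41 to 0.041, and within Hsf1-aa from -0.36 to 0.089 (15 min), -0.79 to -0.72 (30 min) and -1.12 to -0.74 (last step). In WT-aa it ranged from -0.029 to 0.12 (15 min) and -0.16 to 0.16 (30 min). HSC82 ranged from -0.055 to 0.050 (Hsf1-aa, 15 min), -0.74 to -0.64 (step from 15 to 30 min) and -0.87 to -0.72 (change by 30 min). The strain difference of the gap between the genes ranged from -0.21 to -0.078. Features called lower numbered 46 at 30 min (4 to 52 under the alternatives, 30 to 399 with 1 array left out), 65 at 60 min (24 to 195, and 41 to 83) and 65 at 90 min (23 to 77, and 53 to 66). Within Hsf1-aa against 0 min they numbered 34 at 15 min (0 to 124, and 1 to 56), 34 at 30 min (3 to 44, and 14 to 36), 100 at 60 min (24 to 261, and 52 to 135) and 123 at 90 min (30 to 267, and 73 to 183). In WT-aa they numbered 3 (0 to 441, and 1 to 7), 1 (0 to 7, and 1 to 732), 7 (0 to 13, and 1 to 8) and 31 (1 to 73, and 17 to 35). For the changes by 30, 60 and 90 min they numbered 6 (0 to 16, and 2 to 206), 34 (6 to 90, and 20 to 36) and 39 (12 to 43, and 26 to 40), and for the steps 34 (4 to 46, and 12 to 50), 22 (4 to 35, and 13 to 25) and 6 (0 to 6, and 1 to 7). The sample and reference signals of both probes lay far above background. Without the 4 arrays of 30 min, chosen after the data were seen, both Hsp90 genes kept their calls at the other times, and the YMR187C change by 90 min lost its call (adjusted p = 0.0792).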
